A study of Mus musculus with 6 samples.

Results

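Protocadherins are cell adhesion proteins of the cadherin superfamily, and the genes that encode them were followed here in the mouse forebrain after a short high-fat diet. The members are the rows of the count tables whose gene symbol starts with Pcdh, chosen by name alone. They numbered 71 of 23282 rows. Of these, 59 belong to the gene clusters on chromosome 18, with 15 Pcdha, 22 Pcdhb and 22 Pcdhg rows, and 12 are non-clustered genes. A count in at least 1 library was present in 70 of the 71, and Pcdhb1 had none.

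The RNA came from wild-type male C57BL/6J mice aged 8 to 10 weeks, an inbred strain prone to weight gain on fatty food. One group of 3 libraries came from mice on a normal chow diet (NCD) and the other 3 from mice given a high-fat diet (HFD, with 60% of its energy as fat), each for 10 days. The tissue was a forebrain hemisphere without olfactory bulb or cerebellum, so cell types and cortical and subcortical areas are mixed in each library, and a smaller number of cells of a type cannot be told apart from less RNA per cell. The sources do not say whether each library is a separate mouse, so p-values measure the spread between these libraries. RNA was read from its 3′ end with an oligo-dT primed kit (QuantSeq) and 75-base reads, which gives about the same number of reads for a short and a long transcript, and levels are therefore given as CPM (counts scaled to a library of 1000000), not divided by length.

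Clustered protocadherins act as neuronal identity tags. In the Pcdha and Pcdhg clusters each gene symbol stands for its own first exon and promoter, spliced to a set of constant exons, and a neuron switches on a small, partly random choice of these promoters. The proteins bind like copies on other membranes, and this recognition lets branches of one neuron avoid each other. Pcdhb genes lie between the other clusters, use no constant exons and encode proteins with a short cytoplasmic tail. Non-clustered protocadherins, mostly of the delta family, are expressed by defined groups of neurons and guide axon growth, sorting and synapse formation.

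The 3′ ends of these classes differ in the annotation (GENCODE vM21, GRCm38, the same coordinates as mm10). Each of the 13 Pcdha genes in this annotation had a transcript with a last exon that starts at chr18:37184946 on the plus strand, most often reaching chr18:37187657 (2712 bases), after common small exons at chr18:37156155-37156213 and chr18:37159265-37159353. Pcdha1, Pcdha2, Pcdha4, Pcdha6 and Pcdha11 also had a transcript of 5 exons whose last exon starts within this one, at chr18:37185476. The rows Pcdha10 and Pcdha7-g were placed through RefSeq, the latter as Gm38667. The 22 Pcdhg genes ended in an exon that starts at chr18:37839903, most often reaching chr18:37841873 (1971 bases) and in some genes chr18:37841870. It follows common exons at chr18:37825021-37825079 and chr18:37833265-37833353. In the last 1000 bases of each gene's longest transcript, 100% of all 75-base stretches occurred in a transcript of another gene for each of the 13 Pcdha and 22 Pcdhg genes. The same share was 0% for the 12 non-clustered genes and for 18 of the 22 Pcdhb genes. Among the other 4 Pcdhb genes it reached 41.1%, in Pcdhb21, whose gene overlaps Pcdhb22 on the same strand.

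**Figure D1:**
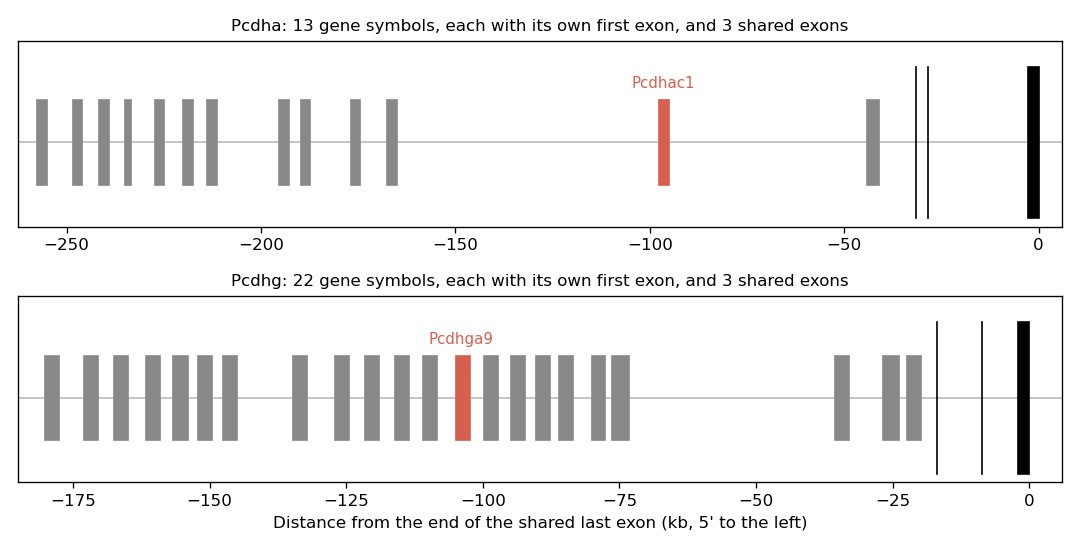
Map of the Pcdha (upper) and Pcdhg (lower) clusters, with distance in kilobases from the end of the shared last exon on the x axis and no measured quantity on the y axis. Grey bars are the first exons of the annotated genes (13 and 22), the red bars those of Pcdhac1 and Pcdhga9, the thin black lines mark the small shared exons (not to width) and the black bars are the shared last exons of 2712 and 1971 bases.

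The non-clustered genes each have an end of their own. To show this, the last bases around the polyadenylation hexamer are given for 4 of them. This signal sets where the poly(A) tail, to which the oligo-dT primer binds, begins. The bases run 5′ to 3′ on the transcript strand with the hexamer in capitals and sequence taken from the GENCODE transcripts. The printed bases of Pcdh9 lie at chr14:93013415-93013444 on the minus strand and those of Pcdh7 at chr5:58133197-58133226 on the plus strand. Those of Pcdh11x lie at chrX:120910588-120910617 on the plus strand and those of Pcdh19 at chrX:133582884-133582913 on the minus strand.
Pcdh9: atcagaagctggAATAAAcccactaatttg
Pcdh7: ttgtctttacaaATTAAAatataacatgat
Pcdh11x: aatatagatattAATAAAgtagttatgaga
Pcdh19: atgcattttagtATTAAAggctattatgga
Of the 12 non-clustered genes, 8 had AATAAA in the last 50 bases of the annotated transcript that reaches furthest 3′, 2 had ATTAAA without it (Pcdh7 and Pcdh19) and 2 had neither (Pcdh10 and Pcdh17). Among 21899 protein-coding genes, searched on the transcript strand in the same window, 59.4% held AATAAA and 13% held ATTAAA only. A match is a description of the letters, and no match says only that they are not in this window.

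The libraries held 6842785 to 9689372 counts, at which 3 counts correspond to 0.316 to 0.432 CPM (counting error only), and Pcdh rows took 0.156 to 0.196% of each. The 7 forebrain markers were all detected, with a summed level of 692 to 810 CPM on NCD and 745 to 758 CPM on HFD, and the 7 neuronal markers gave 4978 to 5199 and 4839 to 4988 CPM. HFD replicate 3 stood apart in its pituitary markers. The 5 pituitary markers summed to 1256 CPM in it, with Gh (growth hormone) at 1092 CPM, against 1.31 CPM in the lowest HFD library and 3.33 to 8.52 CPM on NCD. The 5 olfactory bulb markers summed to 8.02 to 54.6 CPM on NCD and 5.64 to 25.1 CPM on HFD. Each of these 5 was highest in replicate 2 of both diets. The 5 cerebellum markers summed to 34.8 to 46.1 CPM on NCD and 32.7 to 41.4 CPM on HFD. HFD replicate 3 had the lowest CPM of the 6 libraries in 15 of the 34 Pcdh rows tested (44.1%), against 27.1% of all genes tested. It had the highest CPM in 5.88% of these Pcdh rows and in 26.2% of all genes. NCD replicate 3 was also often extreme, lowest in 21.7% and highest in 21.4% of all genes. In the other libraries these shares were 11 to 14.6%. For the Pcdh rows whose fold change was recomputed, the value without HFD replicate 3 is given beside the result. Of the 5 liver markers 4 were lower on HFD at an unadjusted p below 0.05, which in either direction held for 3.68% of all genes tested, with Alb (albumin) at 3.90 to 26.9 CPM on NCD and 1.79 to 5.46 CPM on HFD. The part of these marker differences in the results was not tested.

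In the Pcdha cluster nearly all counts sat in 1 row. Pcdhac1, a C-type gene with its first exon 3′ of the numbered ones (chr18:37090013-37187657), had 1971, 2304 and 2138 counts on NCD and 1644, 2151 and 1602 on HFD. This was 98 to 98.8% of all Pcdha counts in a library. The next highest row, Pcdha11, had 18, 14 and 24 counts on NCD and 14, 10 and 12 on HFD. The lowest, Pcdha7, had 1 count in 1 library, the median total over the 15 rows was 5 counts, and 13 of the 15 had under 15 counts in every library. Pcdhac2, the other C-type gene of the cluster, had 24 counts in all.

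The Pcdhg cluster had the same form. Pcdhga9 (chr18:37736936-37841870), one of the A-type genes in the middle of the cluster, had 4528, 5053 and 6319 counts on NCD and 3951, 5127 and 2956 on HFD, or 96.6 to 97.5% of the Pcdhg counts of a library. The next row, Pcdhga3, summed to 306 counts over the 6 libraries, the lowest, Pcdhgb2, to 1 count, and the median over the 22 rows was 11.5 counts. Fewer than 15 counts in each library were found for 19 of the 22. The C-type genes Pcdhgc3, Pcdhgc4 and Pcdhgc5 had 7, 8 and 6 counts in all.

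Although the rows of these clusters share a last exon, they did not repeat each other's counts, and 0 rows of any cluster matched another row in all 6 libraries. Reads from the shared last exon are identical whichever promoter made the transcript, and the sources do not state how such reads were assigned. The Pcdhac1 and Pcdhga9 rows therefore cannot be told apart from the output of all promoters of their clusters, and are described below as cluster values, not as levels of these 2 isoforms.

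**Figure D2:**
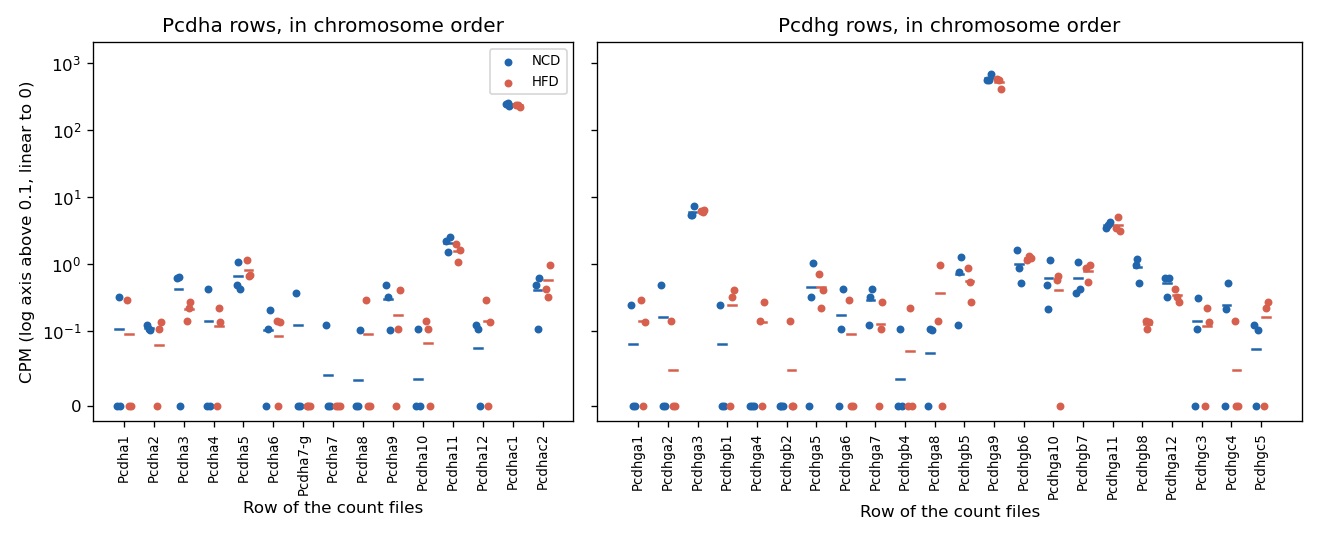
CPM of each Pcdha row (left) and Pcdhg row (right) in chromosome order, on an axis that is logarithmic above 0.1 CPM and linear down to 0. Points are libraries (3 NCD in blue, 3 HFD in red) and short lines are group means. Pcdhac1 lies between 220 and 249 CPM and Pcdhga9 between 406 and 666 CPM, while the next rows, Pcdha11 and Pcdhga3, reach 2.53 and 7.27 CPM.

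Between the diets, the Pcdha sums overlapped. The summed Pcdha rows gave 248, 253 and 229 CPM on NCD (244 ± 12.7, SD, n = 3) and 242, 238 and 225 CPM on HFD (235 ± 8.81, n = 3). HFD replicate 3 was the lowest library and NCD replicate 3 the next. For Pcdhac1 the log2 fold change, HFD over NCD, was -0.05 ± 0.10 (SE), with an unadjusted p of 0.614 and an adjusted p of 0.979 by edgeR's quasi-likelihood test, adjusted after Benjamini and Hochberg over 13771 genes, as in the tests that follow. Its 95% interval ran from 0.834-fold to 1.12-fold, and without HFD replicate 3 the log2 fold change was -0.02.

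Pcdhg output spread more widely. The summed Pcdhg rows gave 573, 560 and 685 CPM on NCD (606 ± 68.5, n = 3) and 584, 577 and 421 CPM on HFD (527 ± 92.5, n = 3). NCD replicate 3 was the highest and HFD replicate 3 the lowest library, and the other 4 lay within 560 to 584 CPM. Pcdhga9 had a log2 fold change of -0.20 ± 0.13 (edgeR unadjusted p = 0.124, adjusted p = 0.979, 95% interval 0.721-fold to 1.04-fold), and of -0.06 without HFD replicate 3 (unadjusted p = 0.507) and -0.11 without NCD replicate 3 (unadjusted p = 0.434). This was the smallest p of the Pcdh rows that passed the count filter.

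The balance between the clusters moved with the same libraries. Pcdhga9 held 2.30, 2.19 and 2.96 counts for each Pcdhac1 count on NCD (2.48 ± 0.413, n = 3) and 2.40, 2.38 and 1.85 on HFD (2.21 ± 0.317, n = 3). The groups overlapped, with the highest value in NCD replicate 3 and the lowest in HFD replicate 3.

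The Pcdhg row with the lowest unadjusted p in any fit was Pcdhgb8, which GENCODE lists as a polymorphic pseudogene (chr18:37761801-37841870). It had 8, 11 and 5 counts on NCD and 1, 1 and 1 on HFD, so the groups did not overlap, with HFD lower, which held for 4.09% of all genes with a count. Each HFD value was under the 3-count level. The ratio of summed counts scaled by library size, HFD over NCD, was 0.144, with an exact 95% counting interval of 0.0277 to 0.473. This interval pools the counts and leaves out the spread between libraries, and the row was named for its low p. The row was below the filter on low counts, and the edgeR fit without a filter gave a log2 fold change of -2.67 ± 1.12 with an unadjusted p of 0.0186 and an adjusted p of 0.941. Without HFD replicate 3 the log2 fold change was -2.71. A two-sided exact permutation test over libraries gave p = 0.1, the smallest that 3 against 3 allows. Any row with separate groups gives this value, so the test adds nothing here. It was the 1 row of 70 that passed both thresholds in that fit (1.5-fold in either direction, unadjusted p below 0.05), as 2.09% of all genes did. It was also the 1 row of 70 with an unadjusted p below 0.05, which held for 4.76% of all genes. Its reads come from a cluster whose ends are shared, so the row is uncertain.

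Pcdhb genes, most of them with a single exon of their own, were counted one by one at low levels. Of the 22 rows, 17 passed the filter, with 10 to 110 counts on average over the 6 libraries and group means from 0.823 to 14.2 CPM. The highest total was that of Pcdhb7 (chr18:37341702-37345202), with 102, 103 and 128 counts on NCD and 101, 107 and 120 on HFD. In CPM this was 12.6, 11.1 and 13.5 against 14.5, 11.7 and 16.5, with overlapping groups. Its log2 fold change was 0.19 ± 0.18 (edgeR unadjusted p = 0.305, adjusted p = 0.979), and 0.07 without HFD replicate 3. Pcdhb17 (chr18:37484795-37489454) had 15.9, 15.3 and 8.85 CPM on NCD and 12.1, 14.8 and 8.11 CPM on HFD, a log2 fold change of -0.18 ± 0.24 (edgeR adjusted p = 0.979). Without HFD replicate 3 it was 0.02, and without NCD replicate 3 it was -0.41. Pcdhb20 and Pcdhb9 followed, with 10.9 ± 0.658 and 7.92 ± 0.942 CPM on NCD and 10.1 ± 1.43 and 7.74 ± 1.68 CPM on HFD (n = 3).

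At the low end, summed over the 6 libraries, Pcdhb8 had 1 count, Pcdhb6 had 2 and Pcdhb1 had 0. For Pcdhb1 a count of 0 allows up to 0.432 CPM in the shallowest library. The lowest log2 fold change of the class was that of Pcdhb4, at -0.84 ± 0.59 (edgeR unadjusted p = 0.174, adjusted p = 0.979). Its counts were 15, 15 and 12 on NCD and 1, 15 and 5 on HFD, so HFD replicate 2 lay within the NCD range. Without that library the log2 fold change was -1.87 (unadjusted p = 0.0261, adjusted p = 0.963), without HFD replicate 1, the library with 1 count, it was -0.40 (unadjusted p = 0.517), and without HFD replicate 3 it was -0.72. Pcdhb15 had 18, 21 and 37 counts on NCD and 17, 21 and 5 on HFD, with HFD replicate 3 low and the other libraries overlapping (log2 fold change -0.62 ± 0.45, edgeR adjusted p = 0.979). Its log2 fold change was -0.25 without HFD replicate 3 and -0.30 without NCD replicate 3.

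The cluster as a whole gave 96.6, 93.4 and 83.1 CPM on NCD (91.1 ± 7.06, n = 3) and 91.3, 94.3 and 78.5 CPM on HFD (88 ± 8.38, n = 3). Its make-up differed between libraries of the same diet. The adjacent genes Pcdhb17, Pcdhb18 and Pcdhb19 together, chosen after their values were seen, took 24, 30.5 and 17.2% of the Pcdhb counts on NCD and 21.5, 27.3 and 19.8% on HFD. Replicate 2 was highest in both diets and replicate 3 lowest, and the groups overlapped.

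**Figure D3:**
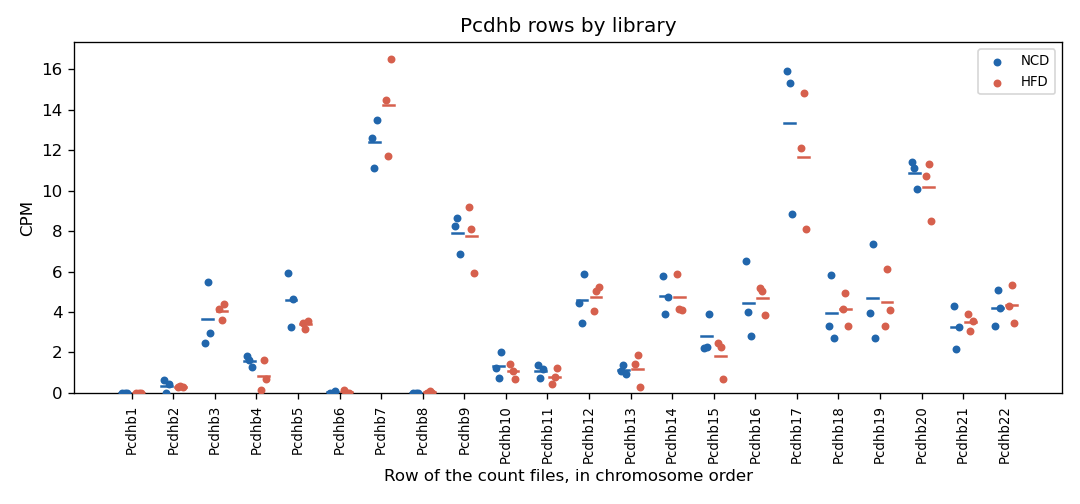
CPM of each of the 22 Pcdhb rows in chromosome order on a linear axis. Points are libraries (3 NCD in blue, 3 HFD in red) and short lines are group means. Pcdhb7, Pcdhb17 and Pcdhb20 have means over 10 CPM in both diets and the groups overlap in each of them.

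The non-clustered genes together gave 1005, 986 and 999 CPM on NCD (997 ± 9.84, n = 3) and 1007, 998 and 909 CPM on HFD (971 ± 53.9, n = 3), beside a sum over all clustered rows of 907 to 997 and 724 to 917 CPM. HFD replicate 3 lay below the other 5. All but Pcdh12 passed the filter. The spread between replicates on the log2 scale, taken on the class median, was 0.0622 for these 11 genes and 0.132 for the 17 Pcdhb genes, which had fewer counts.

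The delta-1 genes encode receptors with a long extracellular part and a cytoplasmic motif that binds protein phosphatase 1. Pcdh9 (chr14:93013410-93890679), abundant in cortical neurons, was the highest, with 335, 308 and 343 CPM on NCD and 345, 305 and 303 CPM on HFD. Its groups overlapped, and its log2 fold change of -0.05 ± 0.10 had a 95% interval of 0.833-fold to 1.12-fold (edgeR unadjusted p = 0.63, adjusted p = 0.979), with -0.11 to -0.02 when 1 library was left out and -0.02 without HFD replicate 3.

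Pcdh7 (chr5:57717967-58133230), which acts in axon and dendrite growth, had 82.9, 83.8 and 91.8 CPM on NCD and 87.4, 91.8 and 100 CPM on HFD. NCD replicate 3 lay within the HFD range, and the log2 fold change was 0.11 ± 0.11 (edgeR unadjusted p = 0.312, adjusted p = 0.979), and 0.06 without HFD replicate 3. Pcdh11x, on the X chromosome (chrX:120290259-120910619), had 58.1, 55.8 and 49.3 CPM on NCD and 56.1, 54.3 and 50.3 CPM on HFD. The HFD values lay inside the NCD range, with a log2 fold change of -0.02 ± 0.12 (edgeR adjusted p = 0.993), and 0.02 without HFD replicate 3. Pcdh1 (chr18:38185914-38212053), known also from airway epithelium, was low, at 2.84, 3.45 and 5.90 CPM on NCD and 4.32, 4.48 and 4.81 CPM on HFD. Its log2 fold change was 0.15 with a 95% interval of 0.693-fold to 1.78-fold (edgeR adjusted p = 0.979), 0.11 without HFD replicate 3 and 0.52 without NCD replicate 3.

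The delta-2 genes share a shorter extracellular part, and several recruit the actin-regulating WAVE complex. Pcdh17 (chr14:84443563-84539002), which helps sort corticostriatal pathways, had 190, 198 and 178 CPM on NCD and 178, 184 and 149 CPM on HFD. The groups overlapped, with HFD replicate 3 lowest, and the log2 fold change was -0.15 ± 0.11 (edgeR unadjusted p = 0.19, adjusted p = 0.979) and -0.06 without that library.

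Pcdh10 (chr3:45378398-45435623), linked to axon growth through the striatum and to synapse removal, had 157, 154 and 149 CPM on NCD and 166, 166 and 154 CPM on HFD. HFD replicate 3 lay within the NCD range, and the log2 fold change was 0.08 ± 0.10 (edgeR adjusted p = 0.979, 95% interval 0.911-fold to 1.22-fold), and 0.11 without HFD replicate 3. Pcdh19 (chrX:133582860-133688987), the X-linked gene mutated in an epilepsy of females, had 109, 99.9 and 106 CPM on NCD and 96, 108 and 81.8 CPM on HFD. HFD replicate 3 was lowest and HFD replicate 2 within the NCD range, and the log2 fold change was -0.14 ± 0.12 (edgeR adjusted p = 0.979). It was -0.04 without HFD replicate 3 and -0.24 without HFD replicate 2.

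Pcdh8 (chr14:79766775-79771312), a protein induced by synaptic activity, had 30.9, 31.4 and 30.9 CPM on NCD and 29.9, 33.9 and 21.6 CPM on HFD. The NCD libraries were nearly equal, while HFD ones lay on both sides of them. The log2 fold change was -0.12 with a 95% interval of 0.734-fold to 1.15-fold (edgeR adjusted p = 0.979), and 0.04 without HFD replicate 3. Pcdh18 (chr3:49743296-49757325) had 6.30, 8.41 and 4.85 CPM on NCD and 6.33, 5.57 and 4.40 CPM on HFD, overlapping, with a log2 fold change of -0.26 (edgeR adjusted p = 0.979). It was -0.14 without HFD replicate 3, -0.03 without NCD replicate 2 and -0.44 without NCD replicate 3.

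The remaining genes fall outside these families or in their margins. Pcdh20 (chr14:88464743-88471396) had 24.8, 32.7 and 29.2 CPM on NCD and 30.5, 34.2 and 33.8 CPM on HFD, the highest log2 fold change of the non-clustered genes at 0.18 ± 0.14 (edgeR unadjusted p = 0.199, adjusted p = 0.979). NCD replicate 2 lay within the HFD range, and the value was 0.16 without HFD replicate 3 and 0.09 without NCD replicate 1. Pcdh15 (chr10:73099342-74649737), part of the tip link of inner ear hair cells and in brain a gene of oligodendrocyte precursors, had 8.39, 9.92 and 9.69 CPM on NCD and 7.49, 10.5 and 6.60 CPM on HFD. Its log2 fold change was -0.18 (edgeR adjusted p = 0.979), with -0.04 without HFD replicate 3 and -0.41 without HFD replicate 2. The 5 markers of oligodendrocyte precursors summed to 218 to 242 CPM on NCD and 185 to 245 CPM on HFD. Pcdh12 (chr18:38267089-38284402), the vascular endothelial protocadherin, had 2, 2 and 2 counts on NCD and 0, 0 and 2 on HFD, all under the 3-count level, and the 5 endothelial markers summed to 32.6 to 36 CPM on NCD and 33.8 to 46.9 CPM on HFD. Pcdh7, Pcdh8, Pcdh10 and Pcdh19 overlap a gene on the opposite strand, and the use of strand in counting is not given in the sources used here.

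**Figure D4:**
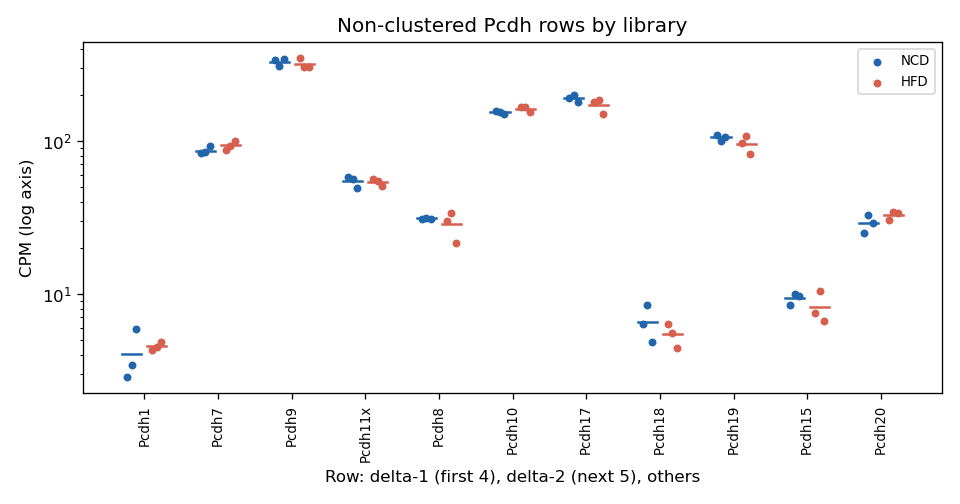
CPM of the 11 non-clustered Pcdh rows that passed the filter, on a log axis, grouped as delta-1, delta-2 and others. Points are libraries (3 NCD in blue, 3 HFD in red) and short lines are group means. Pcdh12, with at most 2 counts in a library, is left out, and the diets overlap in every gene shown.

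Across the family, 34 of the 71 rows passed the filter (at least 10 counts in enough libraries, scaled to depth), namely 2 Pcdha, 17 Pcdhb, 4 Pcdhg and 11 non-clustered rows. Of these 34, 0 had an unadjusted p below 0.05, against 3.68% of the 13771 genes tested. With a 1.5-fold change required as well the share was 0 of 34 against 1.28%, and 0 of 34 had separate groups, against 8.81%. No gene of the 13771 passed an adjusted p under 0.05 by edgeR's test (0%), and DESeq2 gave 2 such genes, 0 of them a Pcdh row.

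The log2 fold changes were above 0 for 15 and below 0 for 19 of the 34, where 50.6% of all genes were below 0. The median was -0.03 and the range -0.84 (Pcdhb4) to 0.33 (Pcdhgb6), against a median of -0.00 for all genes. By class the median was -0.23 for the 2 Pcdha rows, -0.03 for Pcdhb, 0.04 for Pcdhg and -0.05 for non-clustered genes, and without HFD replicate 3 it was -0.02, 0.04, 0.09 and 0.02. Those last medians cover 3 Pcdha, 18 Pcdhb, 4 Pcdhg and 11 non-clustered rows, since the filter kept other rows, and so do not isolate the effect of that library. Clustered rows as a whole had a median of -0.03. The difference between clustered and non-clustered genes was not tested.

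The precision followed the depth. The 95% interval lay within 1.5-fold in either direction for 14 of the 34 rows, namely 8 of 11 non-clustered, 3 of 17 Pcdhb, 2 of 4 Pcdhg and 1 of 2 Pcdha rows, and within 2-fold for 27. For the other rows the interval reached a change of 1.5-fold or more, so such a change is not shown to be absent. The well-covered genes Pcdh9, Pcdh10, Pcdhac1 and Pcdhga9 are among those within 1.5-fold.

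**Figure D5:**
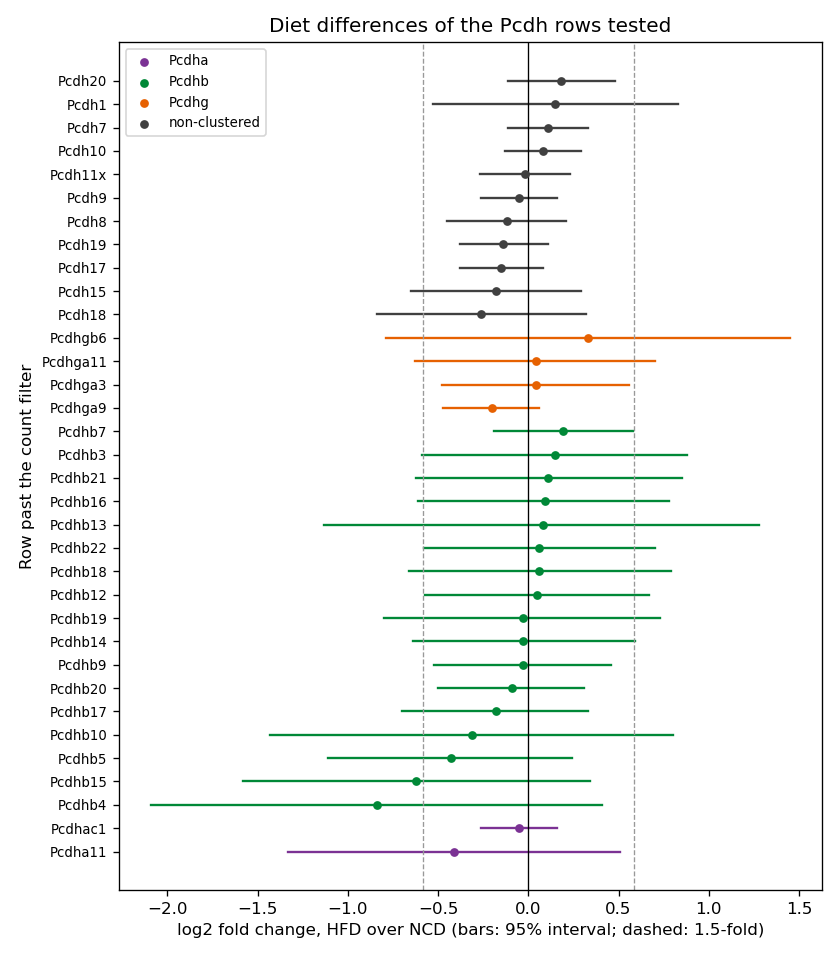
Log2 fold change (HFD over NCD, x axis) of the 34 Pcdh rows tested (y axis), with 95% intervals from edgeR's fit to 3 NCD and 3 HFD libraries. Colours mark the class and dashed lines a change of 1.5-fold. Every interval includes 0, and those of Pcdhb and Pcdha11 are wide where counts are low.

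The genes that act with protocadherins were looked at through fixed lists. Promoters of the clusters are chosen through DNA looping by CTCF and cohesin and silenced by DNA methylation. Of 17 listed regulators, 16 had a row under the symbol listed and 15 were tested, of which 1 had an unadjusted p below 0.05, beside 3.68% of all genes. This was Dnmt1, the maintenance DNA methyltransferase, with 33.6, 35.1 and 40.9 CPM on NCD and 29.8, 31.7 and 20.5 CPM on HFD. The groups did not overlap, as in 8.81% of all genes, and the log2 fold change was -0.41 ± 0.16 (edgeR unadjusted p = 0.0187, adjusted p = 0.979), with -0.25 (unadjusted p = 0.0789) without HFD replicate 3 and -0.32 (unadjusted p = 0.0861) without NCD replicate 3. The cohesin subunits Smc1a and Smc3 had log2 fold changes of -0.01 ± 0.11 and 0.17 ± 0.12, with 204 ± 6.54 and 145 ± 19.5 CPM on NCD and 202 ± 19.4 and 163 ± 12.8 on HFD (n = 3). The groups were also separate for Rad21, a cohesin subunit named after its values were seen, with 132, 128 and 119 CPM on NCD and 147, 145 and 139 CPM on HFD (log2 fold change 0.19, edgeR unadjusted p = 0.0882). Of the 15 regulators 9 had a log2 fold change above 0 and 6 below, where 50.6% of all genes were below 0. The list's median log2 fold change was 0.03.

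Of the 18 cytoplasmic partners, such as WAVE subunits and kinases bound by protocadherin tails, all were tested. Of these, 0 had an unadjusted p below 0.05, beside 3.68% of all genes. The median was -0.04, with 12 of the 18 below 0, where 50.6% of all genes were below 0. The groups were separate for Marcks, named after its values were seen, as in 8.81% of all genes. It had 455, 455 and 426 CPM on NCD and 404, 422 and 397 CPM on HFD. Its log2 fold change was -0.13 (edgeR unadjusted p = 0.193, adjusted p = 0.979). The WAVE subunit Cyfip2 had 687 ± 31.9 CPM on NCD and 656 ± 112 on HFD, and beta-catenin (Ctnnb1) 500 ± 12.8 and 484 ± 28 (n = 3). Of the 6 genes for ADAM10 and gamma-secretase, which cleave protocadherins, 0 had an unadjusted p below 0.05, beside 3.68% of all genes. Their median was -0.01. Aph1a had 57.2 ± 3.69 and 50.4 ± 5.86 CPM and Adam10 56.5 ± 1.41 and 58.9 ± 5.11 CPM.

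Of 19 classical cadherins, 16 were tested and 0 had an unadjusted p below 0.05, beside 3.68% of all genes. The median log2 fold change was 0.02. N-cadherin (Cdh2), a partner of Pcdh8 and Pcdh19, had 117 ± 18.5 CPM on NCD and 122 ± 4.21 on HFD, and Cdh11 48.6 ± 2.3 and 50.1 ± 6.65. Below the filter, Cdh19 had 2, 2 and 0 counts on NCD and 1, 11 and 14 on HFD, with overlapping groups and an edgeR unadjusted p of 0.00814 (adjusted p = 0.788) in the fit without a filter, against 4.76% of genes below 0.05 there, and of 0.11 without HFD replicate 3.

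Of 14 large and other cadherins, 13 had a row and 11 were tested, 9 with a log2 fold change below 0 and a median of -0.33, where 50.6% of all genes were below 0. The summed list was 924 to 987 CPM on NCD and 685 to 967 CPM on HFD, lowest in HFD replicate 3. One had an unadjusted p below 0.05, beside 3.68% of all genes, the giant cadherin Fat1, a planar polarity and growth regulator, with 20, 24.2 and 21.2 CPM on NCD and 18.3, 16.3 and 7.56 CPM on HFD. Its log2 fold change was -0.63 ± 0.23 (edgeR unadjusted p = 0.0141, adjusted p = 0.979), with separate groups (8.81% of all genes) and HFD replicate 3 lowest, and was -0.34 without that library and -0.55 (unadjusted p = 0.0515) without NCD replicate 2. The calsyntenins Clstn1 and Clstn3 were the highest of the list, at 582 ± 49.2 and 100 ± 16.5 CPM on NCD and 525 ± 76.6 and 102 ± 22.8 on HFD (n = 3).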

How the data were processed

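Per the labels and the study's methods, the authors prepared QuantSeq 3′ libraries from forebrain RNA, trimmed the 75-base reads, aligned them to mm10 with Bowtie2 and deposited raw counts per gene, from unique and multiple alignments, by Bedtools coverage. Their later quantile normalization is not in these counts. The annotation, the use of strand, the tool versions and the treatment of reads in shared exons are not given in the sources used here.

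All 6 libraries were fitted together, without covariates, using edgeR 4.0.16 under R 4.3.3. filterByExpr (minimum count 10, minimum total 15) kept 13771 of 18936 genes with a count, and TMM scaling, glmQLFit and glmQLFTest with Benjamini-Hochberg adjustment over all genes followed. CPM use TMM library sizes, the SE is the log2 fold change over the square root of F, and intervals use the test's degrees of freedom. The counts differed between replicates by more than sampling noise (chi-square per degree of freedom 3.55 to 16.7). Replicates 1 and 2 gave 3.55 on NCD and 3.93 on HFD, and pairs with replicate 3 gave 9.72 to 16.7. Pcdhb and other positions come from GENCODE vM21. Alternatives were DESeq2 1.42.0, limma 3.58.1 on quantile-normalized log2(CPM + 1), other scalings and filters, a replicate block and leaving out each library. The scripts were tested on simulated data.

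Genes named are all non-clustered members, those of highest and lowest total in each cluster, members with an unadjusted p under 0.05 and, of the other lists, such genes and the 2 of highest mean CPM over the 6 libraries. Others (Pcdha11, Pcdhac2, Pcdhga3, Pcdhgb6, Pcdhgc3, Pcdhgc4, Pcdhgc5, Pcdhb6, Pcdhb8, Pcdhb9, Pcdhb15, Pcdhb18, Pcdhb19, Pcdhb20 and, of the lists, Rad21 and Marcks) were chosen after their values were seen. The members are defined by symbol alone, but this family and the lists were chosen with earlier results of these data known. No row of a cluster shared all its counts with another row, so the rule on departures from a cluster's common counts could not be applied and named no row.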

Additional observations from a re-analysis of the deposited data

How the results depend on the processing

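Pcdh rows past both thresholds (1.5-fold, unadjusted p below 0.05) numbered 0 in the reported fit, 1 without a filter (Pcdhgb8) and 0 to 1 when a library was left out (Pcdhb4 without HFD replicate 2), while at an adjusted p under 0.05 they numbered 0 in each of the 14 alternatives. With the Pcdha rows and the Pcdhg rows each summed, an alternative chosen after seeing the data, the class medians were -0.05 for Pcdha and -0.20 for Pcdhg, since 1 entry then stands for the class. Leaving out a library gave medians of -0.34 to -0.02 for Pcdha, -0.13 to 0.04 for Pcdhb, -0.21 to 0.09 for Pcdhg and -0.11 to 0.02 for non-clustered genes. Leaving out a library gave log2 fold changes of -0.27 to 0.04 for Pcdh8, -0.04 to 0.52 for Pcdh1, -0.09 to 0.03 for Pcdh11x and -0.41 to 0.02 for Pcdhb17, with signs turned for Pcdh8 (0.04), Pcdh11x (0.02) and Pcdhb17 (0.02) without HFD replicate 3 and for Pcdh1 (-0.04) and Pcdh11x (0.03) without NCD replicate 1. Pcdhgb8 had an unadjusted p of 0.054 without HFD replicate 2 and 0.0787 without NCD replicate 2, with adjusted p from 0.783 to 1 over its alternatives, and DESeq2, limma and the filter of 10 counts in every library gave it no value. Of 282 recomputed values for 21 named genes, 270 kept direction and side of the threshold, and the cause of the other changes was not tested. Deviations from the diet mean in same-numbered libraries had correlations of -0.0295, 0.0515 and -0.0574 over genes. Differently numbered pairs gave -0.0631 to 0.0789. Some values still ran with the number. Alb, each of the 5 olfactory bulb markers and the share of Pcdhb17, Pcdhb18 and Pcdhb19 were highest in replicate 2 of both diets. Whether same-numbered libraries were handled together is not stated and was not tested. The replicate block gave 0 called Pcdh rows and 371 genes with an unadjusted p under 0.05, against 507 without it, 902 without a filter and 773 without HFD replicate 1. At an adjusted p under 0.05 genes numbered 23 without a filter, 2 with DESeq2 and 3 without NCD replicate 3. The planned collapse of each cluster to its most common counts was not run, because no Pcdha or Pcdhg row shared its counts with another. At these depths a 1.5-fold change is within the interval of 20 of the 34 Pcdh rows tested.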
